A study of Mus musculus with 5 samples.

Results

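The 2 libraries labelled BVECTN_4 and BVECTN_4A, of 5 in the RNA-seq series, were compared gene by gene, with 1 library on each side. They were chosen because both carry the BVE-Ctnnb1null label and have related line names. The cell lines of the series were grown from mouse thyroid tumors. All of them carry BRAFV600E, the kinase allele that drives papillary thyroid cancer, and the BVE-Ctnnb1null lines also carry a deletion of CTNNB1, the gene of β-catenin. The other 3 libraries were the third BVE-Ctnnb1null line, BVECTN_5, labelled passage 7, and the BVE line with intact Ctnnb1 (BVE-Ctnnb1wt) at passage 20, once without and once with thyroid-stimulating hormone (TSH). BVECTN_4 was labelled passage 8 without TSH. BVECTN_4A was labelled passage 11, and its label does not mention TSH. In the growth protocol the null lines are put at roughly 20 passages and the BVE line at about 25. The medium is given there as holding 4 mU/mL TSH for all of them, including the libraries labelled without TSH. In bulk RNA, fewer cells of a type and less RNA per cell also cannot be told apart. Mouse strain, sex and age, the promoter behind the deletion and the number of animals or clones behind each line were not given in the sources used here, nor was the descent of BVECTN_4A. Line, passage and TSH therefore cannot be told apart in this comparison, and no difference below has a replicate check or a p-value.

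Thyroid follicular cells are polarized epithelial cells. They are held together by E-cadherin junctions, tight junctions made of claudins, and desmosomes anchored to keratin filaments. In epithelial-mesenchymal transition (EMT), transcription factors of the SNAI, ZEB and TWIST families repress these genes through E-box sequences in their promoters, while vimentin, contractile proteins and fibrillar collagens are switched on. β-catenin links cadherins to actin and is also the coactivator of Wnt target genes.

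Expression was read as FPKM, the estimated read count scaled to transcript length and library total and summed over the transcripts of each gene. Estimated counts summed to 29929677 in BVECTN_4 and 29360002 in BVECTN_4A, and to between 29415980 and 30713079 in the other libraries. Of 17923 genes listed in any library, the 11539 with an FPKM of at least 1 in BVECTN_4 or BVECTN_4A were compared. Ratios are BVECTN_4A over BVECTN_4, with values under 0.01 set to 0.01, and a gene was counted as higher or lower when it was past 4-fold. Intervals on folds are 95% Clopper-Pearson limits on the estimated counts and cover counting error only. A gene with 0 counts was set against 3 counts, or against the listing limit of 0.01 FPKM where that was more, and its fold is given as a lower bound.

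Epcam, Cdh1 and several claudins were strongly expressed in BVECTN_4 and nearly absent from BVECTN_4A, and most other epithelial genes compared were lower there, whereas vimentin, smooth muscle actin, some fibrillar collagens and most EMT transcription factors stood the other way. In all, 1147 genes were at least 4-fold higher in BVECTN_4A, or 9.94% of those compared, and 1282 were at least 4-fold lower, or 11.1%. Between the 2 BVE libraries, which share line and passage, 200 of 9613 genes were past 4-fold (2.08%). BVECTN_4 and BVECTN_5 differed past 4-fold at 2542 of 11613 genes (21.9%), and BVECTN_4A and BVECTN_5 at 1755 of 11565 (15.2%). For the 2 lines with related names the share past 4-fold was 21.1%, close to that between BVECTN_4 and BVECTN_5. Each BVE-Ctnnb1null library against each BVE library gave a larger share, from 21.7% to 27.7%, so by this measure the pair was not the most unlike. As a description over 17923 genes, Pearson's r of log2(FPKM + 0.1) was 0.875 for these 2 lines, the lowest of the 10 pairs of libraries, and 0.981 for the BVE pair. The 2 measures thus ranked the pairs differently.

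**Figure D1:**
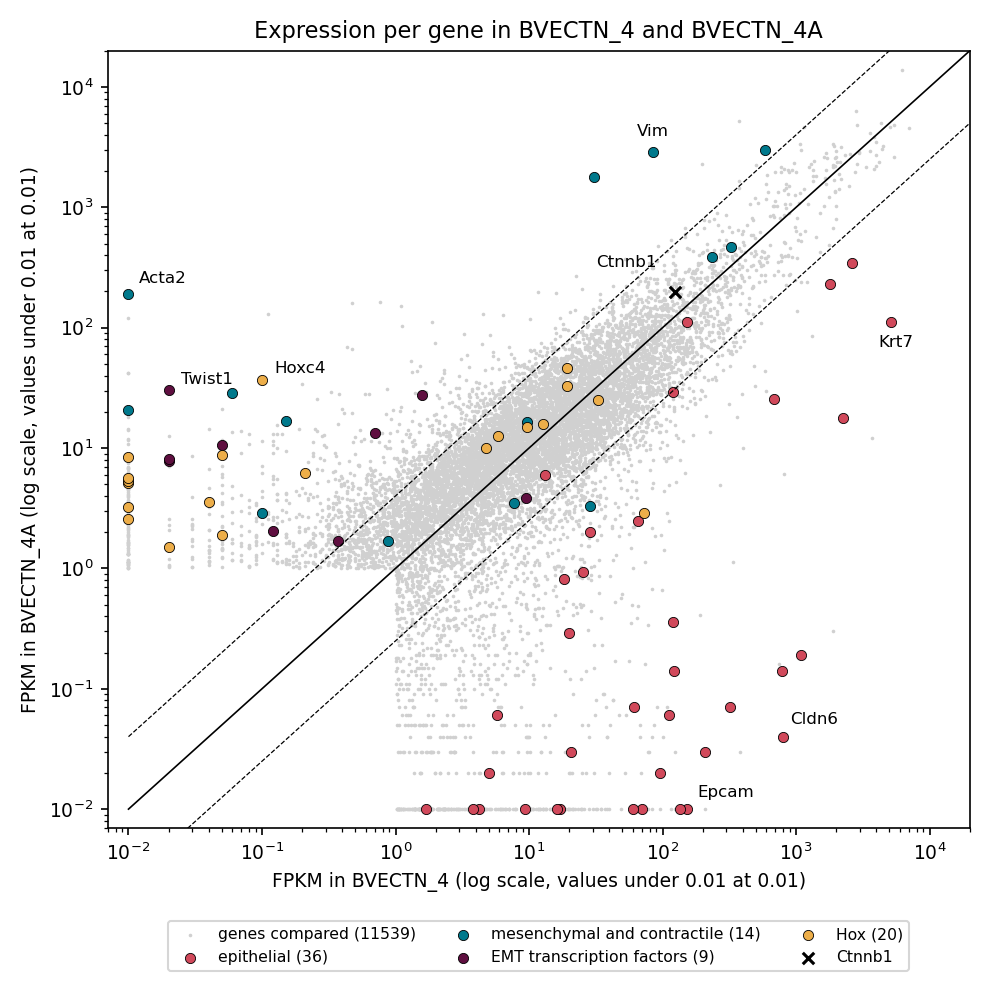
FPKM of each of the 11539 genes in BVECTN_4 (horizontal) and BVECTN_4A (vertical), both on log axes with values under 0.01 drawn at 0.01; the solid line marks equal levels and the dashed lines 4-fold. Most epithelial genes lie below the lines and along the bottom edge. Most EMT factors, the HoxA and HoxC genes and several mesenchymal genes lie at the left, and Ctnnb1 lies between the dashed lines.

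Ctnnb1 itself was checked first, since both lines are labelled as lacking it. Its FPKM was 59.3 and 73.8 in the BVE libraries, 125 in BVECTN_4, 196 in BVECTN_4A and 118 in BVECTN_5. The 3 libraries labelled null were all above both BVE libraries, and BVECTN_4A was 1.54-fold above BVECTN_4 by counts scaled to library totals (interval 1.51 to 1.57). The gene has 2 transcripts in the files, and reads were divided between them by estimate. The shorter (3440 bases) was at 40.1 and 56.4 in the BVE libraries, 26.3 in BVECTN_4, 117 in BVECTN_4A and 81.9 in BVECTN_5. The longer (3640 bases) was at 19.2 and 17.4, 98.3, 78.8 and 35.9 in the same order. BVECTN_4 was thus the lone library with more of the longer transcript, and by that transcript alone the log2 ratio was -0.32 in place of 0.66. Which exons were deleted is not given in the sources used here, and a sum over a transcript also holds reads from exons that remain, so this level checks neither label. The genotypes below are those of the labels.

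Epcam, the surface adhesion molecule that marks simple epithelia, was at an FPKM of 152 in BVECTN_4 and was listed at 0 in BVECTN_4A, with 9414 and 0 counts. It stood at 5.04 and 4.61 in the BVE libraries and 59.6 in BVECTN_5, so the 2 lines compared were the highest and the lowest of the 5. The difference was at least 3078-fold. Vim, the mesenchymal intermediate filament vimentin, was at 85.1 in BVECTN_4 and 2864 in BVECTN_4A, 33.7-fold higher (interval 32.7 to 34.7). BVECTN_4 was the lowest of the 5 libraries for Vim, the others lying between 1401 and 3406. Every library was labelled thyroid epithelial cells. Epcam went against that label in BVECTN_4A, where keratins and thyroid transcription factors, described further on, were present.

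The promoters of a few epithelial genes are shown because E-boxes are the letters through which ZEB and SNAI factors are known to act. They are the 250 bases before the start site on GRCm38.p6 in the RefSeq table, written 5′ to 3′ on the gene's own strand, with each CACCTG or CAGGTG (the same motif on the other strand) in capitals. Epcam was taken as the marker, and Lsr and Ap1m2 as the epithelial genes with most matches, chosen after the windows were searched. The Epcam window is chr17:87635729-87635978 on the plus strand, the Lsr window chr7:30973470-30973719 on the minus strand and the Ap1m2 window chr9:21312334-21312583 on the minus strand.
Epcam: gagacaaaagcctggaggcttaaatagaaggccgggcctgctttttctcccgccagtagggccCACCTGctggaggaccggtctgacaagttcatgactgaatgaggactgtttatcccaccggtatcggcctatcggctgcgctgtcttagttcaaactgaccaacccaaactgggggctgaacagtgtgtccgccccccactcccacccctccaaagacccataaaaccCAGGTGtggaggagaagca
Lsr: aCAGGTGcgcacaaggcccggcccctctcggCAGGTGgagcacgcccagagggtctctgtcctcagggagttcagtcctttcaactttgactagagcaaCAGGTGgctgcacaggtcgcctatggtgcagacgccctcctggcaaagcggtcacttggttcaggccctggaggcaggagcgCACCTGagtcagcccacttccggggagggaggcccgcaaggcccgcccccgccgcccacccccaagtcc
Ap1m2: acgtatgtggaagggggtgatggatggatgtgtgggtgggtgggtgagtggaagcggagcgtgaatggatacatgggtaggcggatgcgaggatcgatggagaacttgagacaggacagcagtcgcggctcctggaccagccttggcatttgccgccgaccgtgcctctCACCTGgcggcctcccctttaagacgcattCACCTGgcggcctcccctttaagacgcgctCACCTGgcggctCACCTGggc

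Epcam held 2 such E-boxes, and Lsr and Ap1m2 held 4 each. Lsr, which encodes a receptor of tricellular tight junctions, was at 122 FPKM in BVECTN_4 and 0.14 in BVECTN_4A. Ap1m2, a subunit of the epithelial basolateral sorting adaptor, was at 60.6 in BVECTN_4 with 0 counts in BVECTN_4A. Of 21 epithelial genes compared that have a window in the table, 15 held the motif, or 71.4%. Over all 27025 genes with a window the share was 19.4%, and over the 9184 of them that were compared here it was 18.0%. None of 9 mesenchymal genes, none of 8 Hox genes and 2 of 19 collagen genes (10.5%) held it. Of the genes on in BVECTN_4 and off in BVECTN_4A (at least 10 FPKM in the one, 3 or fewer counts in the other), 39 of 83 held it (47.0%), against 2 of 13 the other way (15.4%). Among all genes at least 4-fold lower in BVECTN_4A, 319 of 942 held it (33.9%), against 112 of 848 genes at least 4-fold higher (13.2%). Cdh1 has no window in this table. These groups share genes, since most epithelial genes and the genes off in BVECTN_4A are also among those lower there. Their shares are therefore not separate observations. A match is a description of letters and not a bound site, and the groups of genes were not matched for base composition.

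Of 38 epithelial genes in the list, 36 could be compared and 34 of them were at least 4-fold lower in BVECTN_4A, with none higher. Over all genes compared 11.1% were lower and 9.94% higher. Their median log2 ratio was -8.64, or -8.28 with genes at 0 counts set to their bounds, against 0.22 over all genes compared. Cdh1, which encodes E-cadherin, was at 136 FPKM in BVECTN_4 and listed at 0 in BVECTN_4A, with 18168 and 0 counts (at least 5941-fold). The BVE libraries held 1.94 and 1.62 and BVECTN_5 held 20.9. For 27 of the 36 genes BVECTN_4 was the highest and BVECTN_4A the lowest of all 5 libraries, an order that 7.58% of all genes compared had. Only genes below 0 on the log2 scale can have this order. All 36 were below 0, against 5101 of the 11539 genes compared, so the order partly repeats the lower calls. The exceptions to the 34 were Cd24a, a surface sialoglycoprotein, at 153 and 112, and the tight junction claudin Cldn1, at 13.3 and 6.00.

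**Figure D2:**
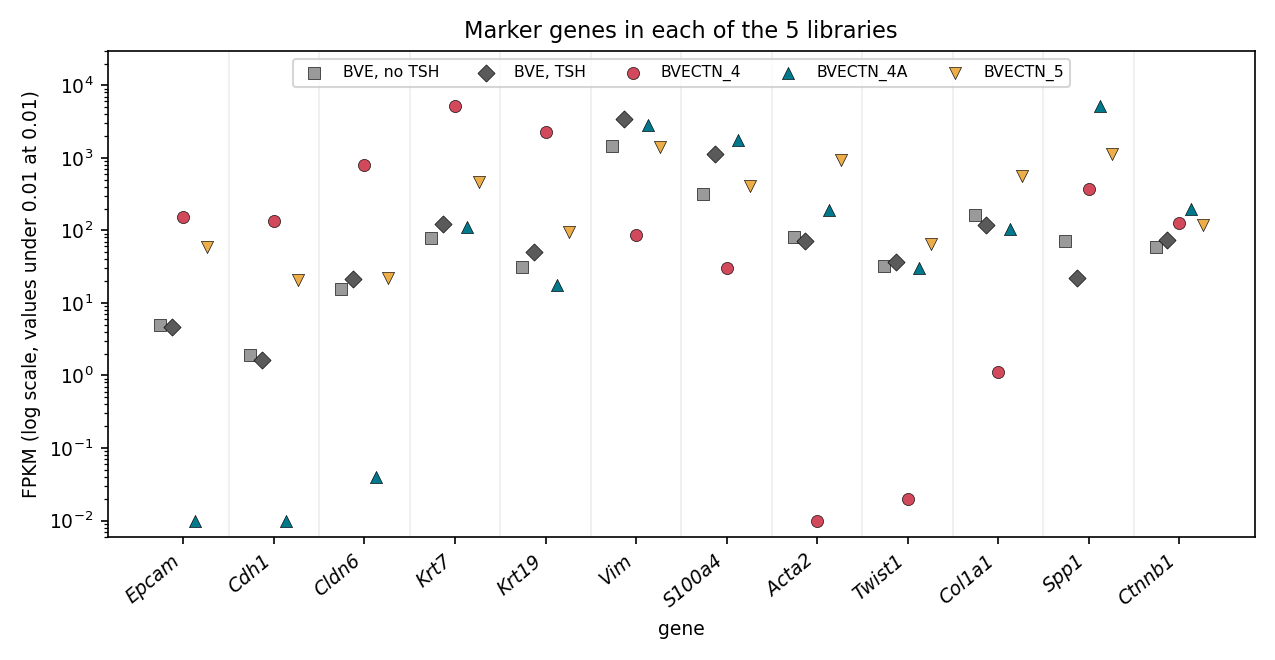
FPKM (log axis, values under 0.01 drawn at 0.01) of 12 genes in each of the 5 libraries, 1 point per library. BVECTN_4 is the top point for Epcam, Cdh1, Cldn6, Krt7 and Krt19 and the bottom point for Vim, S100a4, Acta2, Twist1 and Col1a1.

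Claudins, the sealing proteins of tight junctions, showed wide gaps. Cldn4 was at 1087 FPKM in BVECTN_4 and 0.19 in BVECTN_4A, and Cldn3 at 789 and 0.14. Cldn6 stood at 804 and 0.04, with 36522 counts against 2, a ratio of 17913 with a counting interval of 4959 to 147922. Cldn7 stood at 206 and 0.03. The same genes lay between 4.02 and 27.8 in the BVE libraries and between 17.9 and 194 in BVECTN_5. Of 8 claudins compared, 6 were lower in BVECTN_4A, against 11.1% of all genes compared, and Cldn12 was within 2-fold, at 23.1 and 21.3.

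Keratins and desmosome genes were mostly lower in BVECTN_4A, with median log2 ratios of -2.96 and -6.97. BVECTN_4 was the highest and BVECTN_4A the lowest of the 5 libraries for 1 of 11 keratins and 5 of 9 desmosome genes. Krt7, Krt18, Krt19 and Krt8, which build the filaments of simple epithelia, were at 5131, 2605, 2244 and 1798 FPKM in BVECTN_4. In BVECTN_4A they were at 111, 346, 17.8 and 230, all past 4-fold lower and none near 0. Krt8 and Krt18 in BVECTN_4A were 7.80-fold and 7.52-fold lower and stood close to BVECTN_5, at 201 and 367. Over all genes compared 11.1% were lower and 9.94% higher. Of 11 keratins compared, 9 were lower and 1, Krt13, was higher, at 0.59 and 2.64. Of 9 desmosome genes, 7 were lower, among them the plakophilins Pkp3 (83.9 and 0.67) and Pkp1 (33.8 and 3.94) and the desmoplakin gene Dsp (14.5 and 0.01). Pkp2 was at 17.1 and 15.9.

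Adherens junction genes split. Cdh3, which encodes P-cadherin, was at 36.1 FPKM in BVECTN_4 and 0.09 in BVECTN_4A, and Jup, the plakoglobin gene, at 139 and 22.3. The nectin gene Nectin2 was at 152 and 21.5, while Nectin3 was higher in BVECTN_4A, at 3.55 and 28.2. The catenins that link cadherins to actin were within 2-fold, with Ctnna1 at 271 and 257 and Ctnnd1 at 121 and 95.3. In all, 6 of 15 were lower and 1 was higher, against 11.1% and 9.94% of all genes compared. After centring by GC content 4 were lower and 0 higher.

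Laminin and integrin genes stood in both directions, with 10 of 20 above 0 and 10 below on the log2 scale and a median of 0.12. Lamb3 and Lama3 encode laminin chains of epithelial basement membranes, and Itgb4 encodes a hemidesmosome integrin chain. Lamb3 was at 99.1 FPKM in BVECTN_4 and 0.66 in BVECTN_4A, and Itgb4 at 85.5 and 5.16. Lama3 was at 19.9 and 0.02. Past 4-fold, 8 were lower and 4 were higher, against 11.1% and 9.94% of all genes compared. Among those higher were the laminin chain Lamc1 at 16.9 and 84.6 and the muscle-type integrin Itga7 at 0.73 and 13.4.

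The genes that were on in 1 line and off in the other were mostly those of BVECTN_4. With an FPKM of at least 10 in BVECTN_4 and 3 or fewer counts in BVECTN_4A there were 110 genes, or 1.66% of the 6642 genes at or above 10 in either, against 20 the other way, or 0.301%. In the BVE pair these counts were 3 and 1. From BVECTN_4 to BVECTN_5, 6 genes were off in BVECTN_5 and 50 off in BVECTN_4, and from BVECTN_4A to BVECTN_5 the counts were 8 and 47. The most abundant of the 110 were Cldn6, the platelet chemokine Ppbp (382 and 0.03 FPKM), the apical recycling GTPase Rab25 (323 and 0.07), the basement membrane protein Lad1 (207 and 0.01), Cldn7, Epcam, Cdh1, the transcription factor Hand1 (124 and 0), the raft protein Mal (123 and 0.03) and Psca (115 and 0). Hand1 was at 0 counts in both BVE libraries and at 4 in BVECTN_5, so more than a trace of it was present in BVECTN_4 alone. Folds were also ranked among genes with at least 4 counts in BVECTN_4A and at least 10 FPKM in BVECTN_4. The largest belonged to the secreted protease-inhibitor-like Wfdc2 (1906 and 0.30), Cldn4, Cldn3, the calcium-binding S100a14 (750 and 0.16), the nonmuscle myosin Myh14 (77.2 and 0.03), Lama3, Epn3 (38.4 and 0.04), the serine protease Prss8 (61.6 and 0.07), Lsr and the kinesin Kif1a (40.6 and 0.05).

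In the other direction, Acta2, the smooth muscle actin of myofibroblasts, had 0 counts in BVECTN_4 and 14592 in BVECTN_4A. Its FPKM was 192 in BVECTN_4A, 81.9 and 71.3 in the BVE libraries and 942 in BVECTN_5, and BVECTN_4 was the lone library without it. The gap was at least 4958-fold. With Twist1, described further on, the others of the 10 most abundant of these 20 genes were the cell cycle regulator Rgcc (0.11 and 130), the amine methyltransferase Inmt (0 and 119), the corticotropin-releasing hormone receptor Crhr1 (0 and 42.0), the imprinted growth suppressor Ndn (0 and 41.9), the myosin light chain Myl9 (0.06 and 28.7), Myct1 (0 and 21.9), the predicted gene Gm7334 (0 and 20.9) and the platelet-derived growth factor receptor Pdgfrb (0 and 20.8). Inmt was at 0 counts in both BVE libraries and at 2 in BVECTN_5. More than a trace of it was present in BVECTN_4A alone. Folds were also ranked among genes with at least 4 counts in BVECTN_4 and at least 10 FPKM in BVECTN_4A. The largest belonged to the matrix protein Prelp (0.05 and 21.2), Hoxc4, the secreted glycoprotein Fstl1 (0.47 and 160), Zfp503 (0.05 and 11.7), Peg10, the pyrophosphate transporter Ank (0.77 and 165), Foxc2, Bmp2, the hedgehog co-receptor Gas1 (0.08 and 13.2) and Grem1.

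Of 14 mesenchymal and contractile genes compared, 8 were higher in BVECTN_4A and 1 was lower, against 9.94% and 11.1% of all genes compared. The highest were Tpm1, a tropomyosin, at 589 and 2983 FPKM, Vim, the calcium-binding S100a4 at 30.7 and 1791, and Acta2. Tpm2, another tropomyosin, was lower, at 28.9 and 3.28. Fn1, which encodes fibronectin, was at 234 and 387, and Cdh2, which encodes N-cadherin, at 9.66 and 16.4, both within 2-fold. Not every gene that is commonly called mesenchymal was thus past 4-fold. For 2 of the 14 genes BVECTN_4A was the highest and BVECTN_4 the lowest of the 5 libraries, an order that 6.08% of all genes compared had. Only genes above 0 on the log2 scale can have it, which were 12 of the 14 and 6432 of all 11539.

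All but 1 of 9 EMT transcription factors were higher in BVECTN_4A, against 9.94% of all genes compared. Twist1 had 1 count in BVECTN_4 and 1483 in BVECTN_4A (0.02 and 30.4 FPKM), a ratio of 1512 with a counting interval of 271 to 59752. The BVE libraries held 32.5 and 36.1 and BVECTN_5 held 65.0, so that BVECTN_4 was again the one without it. Twist2 was at 1.59 and 27.4, the E-protein gene Tcf4 at 0.70 and 13.3, and the forkhead gene Foxc2 at 0.05 and 10.6. Zeb1, named here for its place among E-box repressors and outside the naming rule, was at 0.02 and 8.09. Snai1 stood the other way, at 9.54 and 3.87, within 4-fold. The epithelial splicing factor Esrp1 was at 16.2 and 0.01, and the epithelial transcription factor Grhl2 at 3.82 and 0.01, both also named outside the rule.

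**Figure D3:**
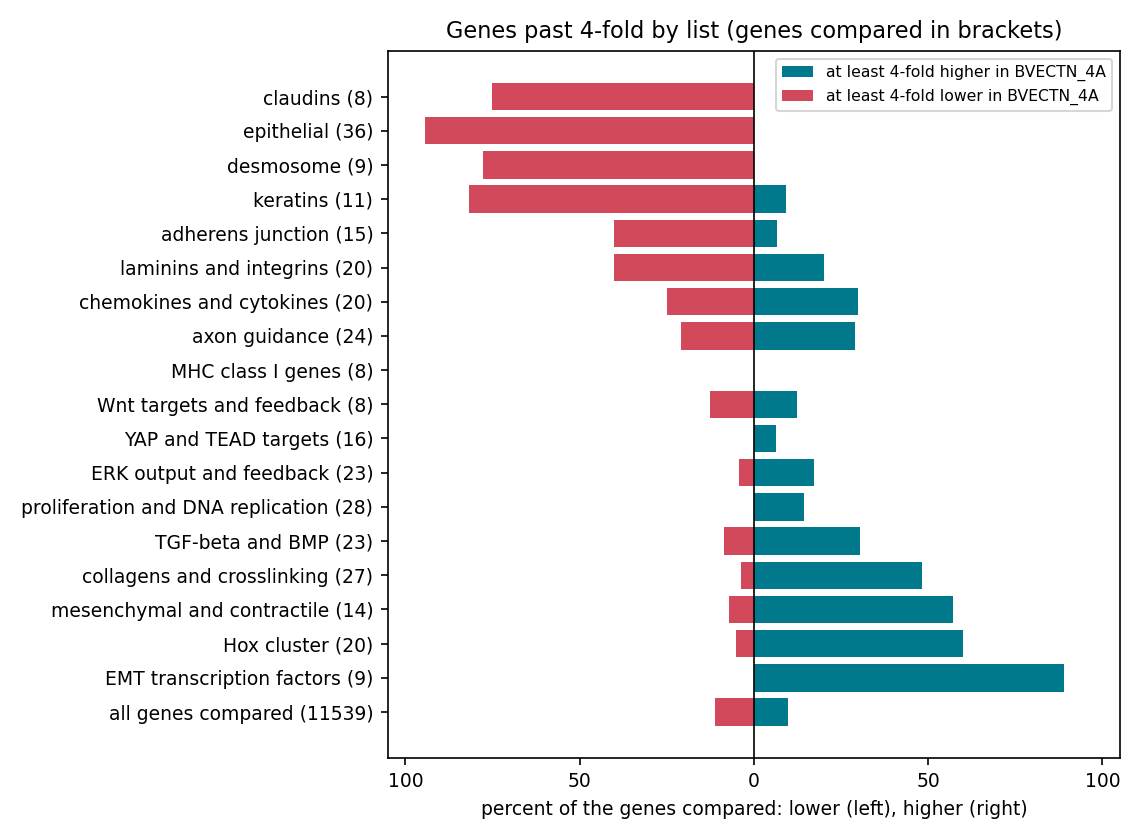
Share of the genes compared in each list that were at least 4-fold lower (left, red) or higher (right, teal) in BVECTN_4A, with the number of genes in brackets. Epithelial, claudin, keratin and desmosome genes lie left, EMT factors, Hox genes, mesenchymal genes and collagens right, and no MHC class I gene passes 4-fold; the bottom bar gives all 11539 genes.

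Of 27 collagen and crosslinking genes, 13 were higher in BVECTN_4A and 1 was lower, with a median log2 ratio of 1.86, against 9.94% higher and 11.1% lower over all genes. Sparc, a collagen-binding matrix protein, was at 196 and 2298 FPKM, Col1a1, the fibrillar collagen of stroma, at 1.11 and 104, Col5a2 at 7.73 and 56.0 and Col6a1 at 3.92 and 22.3. Col1a1 in BVECTN_4A was near the BVE libraries, at 161 and 118, and under BVECTN_5, at 570. Other fibrillar collagens in BVECTN_4A lay on either side of the BVE libraries, such as Col1a2 at 13.2 against 49.4 and 51.1, Col3a1 at 6.98 against 70.3 and 77.6 and Col5a1 at 19.7 against 9.65 and 8.89, all named outside the rule. The basement membrane collagens Col18a1 (179 and 103) and Col4a2 (39.1 and 41.8) were within 2-fold. The lysyl oxidase gene Loxl4 was lower, at 17.9 and 1.03.

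Of 19 matrix proteases and inhibitors compared, 4 were higher and 3 lower, against the same shares over all genes. The gelatinase gene Mmp2 and the inhibitor Timp3 were higher in BVECTN_4A, at 7.87 and 51.1 FPKM and at 3.55 and 46.8. The collagenase gene Mmp13 (14.3 and 0.03), the gelatinase gene Mmp9 (11.2 and 0.17) and the plasminogen activator Plau (80.1 and 10.6) were the ones lower.

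Of 19 thyroid genes, 6 reached 1 FPKM in either line, with a median log2 ratio of -0.84. Of these, 2 were at least 4-fold lower in BVECTN_4A and 1 was higher, against 11.1% and 9.94% of all genes compared. After centring by GC content 2 were lower and 2 higher. Pax8, Nkx2-1, Hhex and Foxe1 are the factors that specify follicular cells. Pax8 was at 18.2 FPKM in BVECTN_4 and 12.8 in BVECTN_4A, above the BVE libraries (0.40 and 0.17) and BVECTN_5 (2.56). Nkx2-1 was at 9.26 and 34.8, within 4-fold, and Hhex at 1.08 and 20.2, 18.7-fold higher in BVECTN_4A. Foxe1 had 0 counts in both. Slc5a5, the iodide transporter, was at 6.48 and 0.05, and Cdh16, the kidney-type cadherin of follicular cells, at 6.30 and 0.02. The hormone precursor gene Tg reached 10 counts in BVECTN_4 and 128 in BVECTN_4A, and the TSH receptor gene Tshr 1 and 14. Pax8 and Nkx2-1 were thus present in both lines, while Tg and Tshr were under 1 FPKM in both.

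Hox genes, which give body-axis position, divided by cluster. HoxB genes were expressed in both lines, with a summed FPKM of 177 in BVECTN_4 and 161 in BVECTN_4A. Of the 8 compared, 1 was past 4-fold, Hoxb9, at 73.0 and 2.87. Hoxb7 (33.1 and 25.2), Hoxb8 (19.2 and 32.6) and Hoxb4 (12.7 and 15.7) were within 2-fold. HoxA genes summed to 0.10 in BVECTN_4 and 33.1 in BVECTN_4A, and HoxC genes to 0.39 and 57.1. All 7 HoxA and all 5 HoxC genes compared were higher in BVECTN_4A, against 9.94% of all genes compared. Hoxc4 alone was at 0.10 and 37.1, with 6 and 2167 counts. BVECTN_5 held HoxA genes (14.5 summed) with almost no HoxC (0.04), and the BVE libraries held both (18.7 and 21.1 for HoxA, 6.84 and 8.39 for HoxC). HoxD genes summed to 0 and 0.02 in the 2 lines compared and to 10.4 in BVECTN_5. Each BVE-Ctnnb1null line had its own set of expressed Hox clusters.

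**Figure D4:**
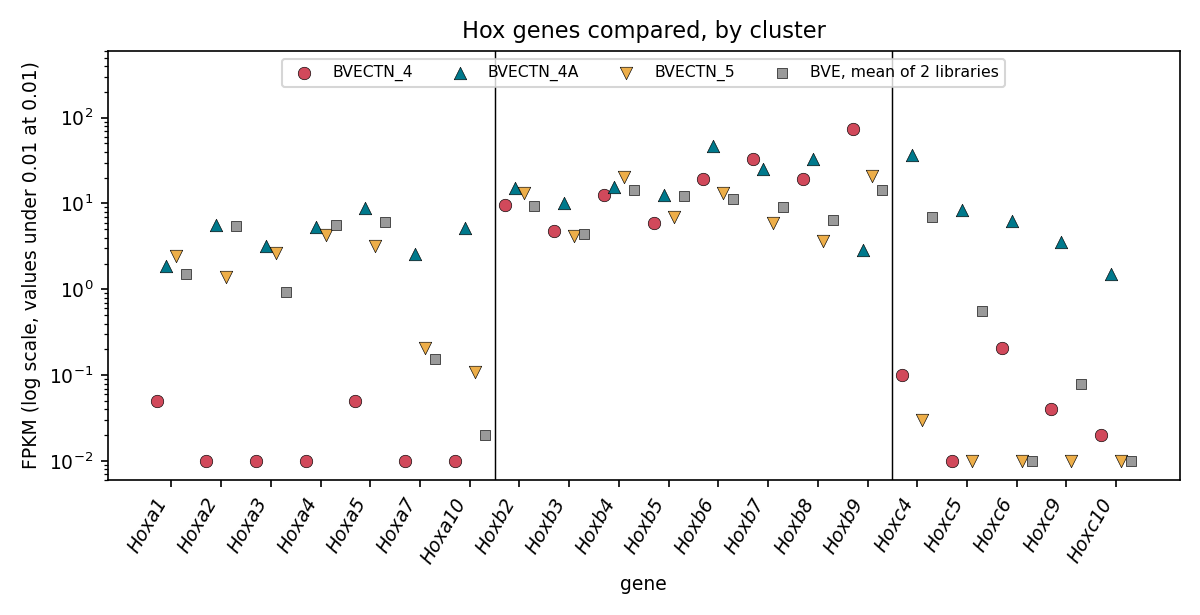
FPKM (log axis, values under 0.01 drawn at 0.01) of the 20 Hox genes compared, ordered by cluster and number, in the 3 BVE-Ctnnb1null libraries and as the mean of the 2 BVE libraries. HoxB points lie together except Hoxb9, while BVECTN_4 lies at or under 0.21 for every HoxA and HoxC gene.

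Some developmental regulators outside the Hox clusters also differed. Foxa2 (23.4 and 4.59 FPKM), Foxa1 (2.26 and 0.34) and Pax1 (2.09 and 0.01), transcription factors of endoderm and pharyngeal pouch, were lower in BVECTN_4A. The pouch factor Pax9 (0.12 and 13.0) and Sox2 (0 and 4.71) were higher. In the whole list 5 of 15 were lower and 3 higher, against 11.1% and 9.94% of all genes compared. Among 13 imprinted growth genes compared, Ndn, Peg3 (0.87 and 31.2) and Peg10 (0.06 and 13.5) were higher. Dlk1 (29.2 and 1.02), Phlda2 (26.7 and 0.14), Cdkn1c (9.0 and 0.14), H19 and Igf2 were lower, against the same shares over all genes.

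Signaling genes were mixed, and their counts stand beside 9.94% higher and 11.1% lower over all genes. Of 23 TGF-β and BMP genes, 7 were higher in BVECTN_4A, among them the BMP antagonist Grem1 (0.43 and 69.5 FPKM), the matrix protein Tgfbi (1.45 and 43.9), the latency protein Ltbp1 (7.32 and 40.5) and the ligand Bmp2 (0.20 and 34.2). The ligand Bmp7 (21.5 and 0.51) and the inhibitor of differentiation Id2 (53.1 and 9.85) were lower. TSH acts through cAMP, and of 12 cAMP response genes 2 were higher, the G-protein regulator Rgs2 (0.25 and 14.4) and Crem (0.50 and 2.49), and 3 were lower, the kinase Sik1 (17.5 and 0.95), the clock gene Per1 (10.4 and 2.01) and Fos (1.69 and 0.31). Of 23 genes of ERK output and feedback, the pathway downstream of BRAF, 4 were higher, or 2 after centring by GC content. They were the feedback inhibitors Spry2 (5.25 and 30.6), Spred1 (4.41 and 28.9) and Spry4 (1.29 and 13.1) and the ETS factor Etv1 (0.91 and 10.0), while Ier3 was lower (320 and 61.0).

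Wnt target and feedback genes, which read the coactivator role of β-catenin, held 1 call each way among 8 compared, near the shares over all genes (9.94% higher and 11.1% lower), and no lower call after centring by GC content. Apcdd1, a Wnt inhibitor, was at 3.42 and 59.3 FPKM, and Tcf7l1, a repressor of the TCF family, at 15.5 and 2.14. Ccnd1 (683 and 832), Myc (51.4 and 41.8) and Cd44 (42.9 and 84.5) were within 2-fold. The commonly used targets Axin2 (0 and 0.09) and Lgr5 (0 counts in both), named outside the rule, were under 1 FPKM. Of 16 YAP and TEAD target genes 1 passed 4-fold, and Ccn1 (187 and 340), Ankrd1 (243 and 209) and Axl (141 and 250) were within 2-fold. Among receptor tyrosine kinases and ERBB ligands, 5 of 19 were higher, of which the most abundant were Pdgfrb and the collagen receptor Ddr2 (0.01 and 14.2). The RET receptor gene (1.07 and 0.01) and Tgfa (16.0 and 3.98) were lower, and after centring by GC content the list held 3 higher and 4 lower. Axon guidance genes were called at 7 of 24 higher, the most abundant being Unc5b (10.2 and 117) and Sema7a (0.47 and 67.1), and at 5 lower, the most abundant being Ephb4 (87.2 and 21.0), at a log2 ratio of -2.06, and the largest ratio belonging to Sema4d (9.79 and 0.29), against the same shares over all genes.

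A list of cell cycle inhibitors, D cyclins and p53 pathway genes held 3 of 23 higher and 4 lower, counts not far from the shares over all genes (9.94% and 11.1%). Cdkn2a, the Ink4a/Arf tumor suppressor gene, was at 107 FPKM in BVECTN_4 and 2.91 in BVECTN_4A, with 5.34 and 6.03 in the BVE libraries and 771 in BVECTN_5. Cdkn1c, which encodes p57, was at 9.0 and 0.14. The p53 targets Bbc3 (31.6 and 7.22) and Pmaip1 (19.4 and 4.74) were just past 4-fold. Higher were Ccnd2 (17.7 and 72.1), which encodes cyclin D2, Cdkn2c (1.87 and 13.7) and Rbl1 (2.82 and 11.4), and Trp53 was within 2-fold (135 and 186). Of 28 proliferation genes, 4 were higher in BVECTN_4A, Pcna (32.4 and 135), Rrm2 (14.5 and 74.9), Ccna2 (12.4 and 51.2) and Ccne2 (0.12 and 5.50), with a list median of 1.27. Over all genes compared 9.94% were higher, and the count of 4 was 1 after centring by GC content, described further on.

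NKG2D ligands and MHC class I molecules are read by natural killer cells. Raet1d, a ligand of the activating receptor NKG2D, had 2 counts in BVECTN_4 and 214 in BVECTN_4A (0.05 and 5.70 FPKM), a ratio of 109 with a counting interval of 29.8 to 906. The BVE libraries held 0 FPKM and BVECTN_5 held 0.15, so BVECTN_4A was the lone library with more than a trace. Raet1e was at 2.34 and 18.5 (7.77 and 6.46 in BVE, 3.54 in BVECTN_5), and Ulbp1 at 4.57 and 10.2. The 5 ligands listed summed to 7.68 and 35.3 in the 2 lines, 8.51 and 8.05 in the BVE libraries and 8.5 in BVECTN_5. In the BVE libraries most of that sum was Raet1e. Of these 3 ligands, 2 were past 4-fold higher, or 1 after centring by GC content, against 9.94% of all genes compared. H60b (15 and 23 counts) and H60c (17 and 2 counts) were under 1 FPKM in both. Other members of the family could not be matched to a gene number here and were not analysed. No MHC class I gene among 8 compared passed 4-fold, where 21.1% of all genes did, a share that gives few calls among so few genes, and H2-L and H2-T9 could not be matched and were not analysed here. H2-D1 was at 172 and 103, H2-T22 at 33.9 and 23.7 and H2-T23 at 37.7 and 23.5.

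Chemokines and growth factors for white blood cells differed in both directions. The neutrophil chemokines Cxcl5 (191 and 0.41 FPKM) and Cxcl3 (7.06 and 0), the granulocyte growth factor Csf3 (14.1 and 0.05) and the membrane-bound chemokine Cxcl16 (112 and 2.49) were lower in BVECTN_4A. Spp1, which encodes osteopontin, was at 373 and 5234, with 71.2 and 22.1 in the BVE libraries. The macrophage growth factors Csf1 (92.5 and 477) and Il34 (5.97 and 30.3) and the stromal chemokine Cxcl12 (6.33 and 128) were higher. In all, 6 of 20 chemokine and cytokine genes were higher and 5 lower, against 9.94% and 11.1% of all genes compared. Cxcl1 (56.1 and 40.8) and Cx3cl1 (64.1 and 63.4) were within 2-fold.

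Over all genes compared 21.1% were past 4-fold. Of 80 cytosolic ribosomal protein genes 2 were past 4-fold, both higher in BVECTN_4A, with 67 above 0 and 13 below and a median log2 ratio of 0.57. Of 78 respiratory chain genes 3 were higher and 2 lower. Of 25 glycolysis and hypoxia genes 2 were higher and 1 lower, and of 21 cholesterol and fatty acid genes 1 each way, with 5 above 0 and 16 below. Interferon-stimulated genes held 3 higher of 16, near that share. Of 21 NRF2 target and metallothionein genes 6 were lower and 1, the metallothionein Mt3, was higher, with the aldehyde dehydrogenase Aldh3a1 at 229 and 13.6 and Hmox1 at 119 and 25.7.

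Markers of other cells that a tumor culture can hold were looked at next. In the macrophage list Cd68 (59.8 and 1.00 FPKM) and Cd14 (64.4 and 3.81) were compared and lower in BVECTN_4A, while Csf1r was at 13 and 2 counts and Lyz2 at 1 and 7, and Ptprc and Adgre1 were not listed in any library. The list summed to 124 in BVECTN_4, 5.05 in BVECTN_4A, 11.4 and 21.7 in the BVE libraries and 45.4 in BVECTN_5, and its part in the chemokine values was not tested. The Schwann and neural list summed to 1.37 in BVECTN_4 and 14.2 in BVECTN_4A, nearly all of it the tubulin gene Tubb3 (1.03 and 14.0). Lymphocyte and natural killer, endothelial, adipocyte and C cell lists had no gene at 1 FPKM in either line. The fibroblast genes Col3a1 (0 and 6.98) and Pdgfra (0.10 and 2.86), named outside the rule, were present in BVECTN_4A, while Dcn (0.04 and 0.06) and Lum (0 and 0) were at or near 0 in both. The Y-linked genes Ddx3y, Kdm5d and Eif2s3y had 0 counts in both lines and in the BVE libraries and 79 to 138 counts in BVECTN_5.

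Base composition and chromosome also went with the ratio. In the fifth of genes with the lowest transcript GC content (up to 44.9%) the median log2 ratio was 1.22, with 21.2% of genes higher and 2.76% lower. In the fifth with the highest GC content (from 56.4%) it was -1.02, with 4.45% higher and 24.6% lower. BVECTN_5 over BVECTN_4 had nearly the same course, from 1.16 to -1.03, while BVECTN_5 over BVECTN_4A ran from -0.07 to 0.08. The null lines also differed from the BVE line with GC content: BVECTN_4A over the BVE library without TSH ran from 1.48 to -0.11 and BVECTN_5 over it from 1.44 to 0.04, while BVECTN_4 over it ran the other way, from 0.21 to 1.05. Centred by GC content, 34 epithelial genes were lower (median -8.52), 8 mesenchymal and 13 Hox genes higher, and 17 collagen genes higher. Desmosome genes lower stayed at 7, claudins lower went from 6 to 7, and the TGF-β and BMP counts were 7 higher and 2 lower both ways. Several other counts were smaller after centring, and some larger, such as that of receptor tyrosine kinases and ligands lower, from 2 to 4. Among genes lower, keratins went from 9 to 7, laminins and integrins from 8 to 6, adherens junction genes from 6 to 4, macrophage markers from 2 to 1, cAMP response genes from 3 to 2, and respiratory chain genes from 2 to 1. Wnt, class I processing, and cholesterol and fatty acid genes lower went from 1 to 0 each. Among genes higher, EMT factors went from 8 to 7, receptor tyrosine kinases and ligands from 5 to 3, ERK genes and proliferation genes from 4 to 2 and from 4 to 1, the list with cell cycle inhibitors and D cyclins from 3 to 1, respiratory chain genes from 3 to 1, cAMP response genes from 2 to 1, NKG2D ligands from 2 to 1, ribosomal protein genes from 2 to 0, and adherens junction and YAP genes from 1 to 0 each. Whether GC content had a part in the ratios was not tested beyond this centring.

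By chromosome, gene positions of GRCm38.p6 were used with genes at 5 FPKM or more in both libraries of a pair. On chromosome 19 the 253 genes had a median log2 ratio of -0.87, or -0.70 centred by GC content. BVECTN_4 over the 2 BVE libraries gave 1.12 and 1.14 there and over BVECTN_5 1.02, while BVECTN_4A over the BVE libraries gave -0.02 and 0.13. On chromosome 12 the 176 genes had a median of 0.92 (0.56 centred), and BVECTN_4 over the BVE libraries gave -0.85 and -0.75 and over BVECTN_5 -0.40 (-0.16 centred). On chromosome 4 the 360 genes had a median of 0.52 (0.55 centred), and BVECTN_4 over BVECTN_5 gave -0.51 (-0.71 centred). The other chromosomes lay between -0.48 and 0.65, or between -0.17 and 0.39 centred. DNA copy number was not measured, and its part was not tested.

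**Figure D5:**
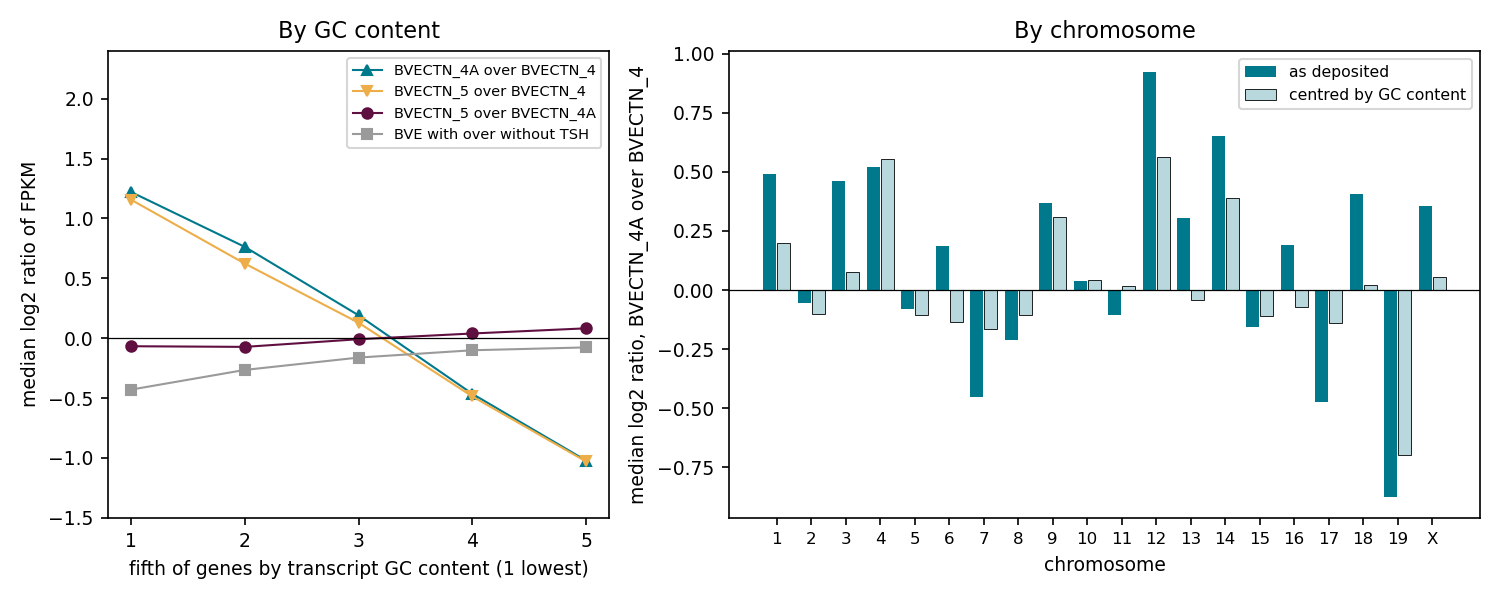
Left, median log2 ratio of FPKM in 5 equal groups of genes ordered by transcript GC content, for 4 pairs of libraries; right, median log2 ratio of BVECTN_4A over BVECTN_4 per chromosome (bars from 0), as deposited and centred by GC content. Both ratios over BVECTN_4 fall from above 1 to below -1 with GC content, and chromosomes 12 and 19 stand farthest from 0, with chromosome 4 close to 12 once centred.

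Near the limit, Zfp54 (0.31 and 1.24 FPKM) was just inside 4-fold on the higher side and Anp32b (65.5 and 262) just outside it. On the lower side Itgb7 (1.40 and 0.35) was just inside and Cd99 (986 and 247) just outside.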

How the data were processed

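RNA from 5 thyroid tumor cultures was prepared with TruSeq kits and sequenced on an Illumina HiSeq. Per the file headers, the authors deposited for each library an expected count per transcript (not whole reads, and not normalized) and an FPKM, that count per kilobase and per library total. The aligner, counter, build and strand setting were not given in the sources used here. Both were summed here over the transcripts of each gene number (17923 genes). Symbols came from the RefSeq table of GRCm38.p6 for 17866 genes and from GENCODE for 4, and 53 stayed unnamed. The members and the gene lists (44) were chosen with earlier results of these data known. Genes at 1 FPKM or more in either line were compared by the log2 ratio of FPKM, with 0.01 as the lowest value and 4-fold as the limit. With 1 library a side there was no test. Genes were named by rule: Ctnnb1, Epcam and Vim, up to 10 per direction by ratio (at least 10 FPKM, and at least 4 counts in the lower library) and 10 by FPKM (3 counts or fewer in the lower library), up to 4 per direction and 3 within 2-fold per list, and the whole thyroid, sex-linked and NKG2D lists, except some genes that are not reported here. Alternatives were other minimums, pseudocounts and folds, and scaling by edgeR 4.0.16 (TMM) or DESeq2 1.42.0 size factors. Centring in 20 bins of transcript GC content, known for 98.7% of the genes compared, was added after seeing the data. Scripts ran in Python 3.11.15 and R 4.3.3 and were tested on simulated data.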

Additional observations from a re-analysis of the deposited data

How the results depend on the processing

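No paired analysis was possible because each side was 1 library, and for the same reason no replicate could be left out. Of 1510 values recomputed under other settings, 1265 moved little (counts by up to 1.5 times, list medians by under 1 and the median of all genes by up to 0.1 on the log2 scale, single genes within their counting interval or bound) and 245 moved more. No value past 4-fold changed sign. By its most abundant transcript alone, Ctnnb1 had a log2 ratio of -0.32. The counts of genes higher and lower were 619 and 814 at a minimum of 5 FPKM (7 Hox genes higher), 2118 and 2642 with no minimum (median log2 ratio 0.034), 481 and 773 on log2(FPKM + 1), 3265 and 2587 at 2-fold (21 collagen genes higher) and 533 and 843 at 8-fold. The median log2 ratio over all genes was 0.22, and it was 0.065 with TMM, 0.045 with DESeq2 size factors and 0.0 when centred. Genes higher and lower then numbered 990 and 1395, 972 and 1411, and 951 and 1467. Centred by GC content, an alternative chosen after seeing the data, 735 genes were higher (614 of them among the 1147) and 1079 lower (971 of them among the 1282), with a median of 0.0. The cause of these shifts was not tested. Depth limits low genes, since a gene with 3 or fewer counts of 29929677 or 29360002 carries no more than a lower bound or a wide interval. Counting intervals cover neither culture nor library preparation.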

Other observations

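Some gene groups belonged to no comparison above. Of 14 retinoid genes compared, 4 were at least 4-fold lower in BVECTN_4A and 1 was higher (2 after centring by GC content), against 11.1% and 9.94% of all genes compared. The receptor Rxra was at 24.1 FPKM in BVECTN_4 and 3.73 in BVECTN_4A, and the retinaldehyde dehydrogenase Aldh1a3 at 6.19 and 0.82.

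Nnt, the mitochondrial transhydrogenase that some mouse substrains lack, was at 3.67 and 23.4 FPKM. Xist, the RNA of the inactive X chromosome, had 726 counts in BVECTN_4 and 342 in BVECTN_4A. The sex-linked list summed to 1.35 and 0.65 FPKM in these 2 lines, 0.03 and 0.01 in the BVE libraries and 4.33 in BVECTN_5. Of its 5 listed genes, 3 had 0 counts in each of the 2 lines compared. The respiratory chain gene Cox6b2, a testis-type subunit, was at 90.6 in BVECTN_4 and 0.07 in BVECTN_4A. The neuronal tubulin Tubb3 was at 1.03 and 14.0, the muscle filament gene Des at 1.03 and 0.09, and Rpph1, the RNA of RNase P, at 0.24 and 9.17. Of 5 non-polyadenylated RNAs compared, 3 were higher in BVECTN_4A and 0 lower, against 9.94% and 11.1% of all genes. Their median log2 ratio was 2.95, and 2 were higher after centring by GC content. Tap1, the peptide transporter of antigen processing, was the 1 gene of 11 in that list past 4-fold, against 21.1% of all genes compared. After centring by GC content that list held 0 genes past 4-fold.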
